A study of Mus musculus with 95 samples.

Results

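The genes described here are 39 genes that mark microglia and other tissue macrophages, looked up by symbol in a mouse RNA-seq series that compared a torpor-like state (TLS) with its controls. All 39 symbols were found among the 55401 rows of the deposited count table, each in 1 row. The series holds 95 libraries from white adipose tissue (WAT), liver, kidney and cortex of C57BL/6J mice. TLS animals, labelled Stim, were sampled after 3 months of the state at an age of 205 days, control animals (Con) at the same age, and T0 animals at the start, 83 days younger. Each group had 8 animals, 4 labelled F and 4 labelled M, and the animal codes recur across the 4 tissues. WAT of Con had 7 libraries. Mice were perfused with PBS before tissue was taken, which removes most blood but not tissue macrophages. How TLS was induced is not stated in the labels. The animal is the unit of replication throughout.

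Microglia are the resident macrophages of the brain. They depend on signalling through Csf1r, survey neurons through receptors for fractalkine and for nucleotides, and take up debris and synapses, in part through complement and through receptors that signal by immunoreceptor tyrosine-based activation motifs (ITAMs). Most of their genes are shared with macrophages elsewhere, among them Kupffer cells in liver and adipose tissue macrophages, while a smaller set such as P2ry12, Tmem119 and Sall1 is used to tell microglia from blood-derived cells. The 39 genes were ordered by role into 5 receptors, 6 further surface or secreted markers, 4 transcription factors and 7 genes listed as ITAM-linked. The rest were 3 complement genes, 5 lysosomal genes, 7 leukocyte genes and 2 genes of perivascular macrophages. The SLAM-family receptor Cd84 was placed in the ITAM-linked list. All 3 groups were C57BL/6J animals handled under 1 batch code. Each library also carries a number, and this number splits TLS from Con in all 4 tissues. It was at most 96 for TLS and at least 98 for Con. The part of this order in the differences between TLS and Con was not tested, because order and group coincide.

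Libraries held 14299369 to 22962145 counts in cortex, 15881766 to 29089492 in WAT, 4031533 to 29269511 in liver and 8217875 to 28337864 in kidney. Levels are CPM, the count scaled by the library total, given as the lowest, median and highest library of a group, with the mean ± SD in brackets (n = 8, and n = 7 for Con in WAT). The marker list of each tissue summed highest in that tissue in every library. The nuclear RNAs Meg3, Neat1 and Malat1 together took a share of the counts that differed between cortex groups. It was 0.212% to 0.318% in the 4 M TLS libraries and 0.209% to 0.308% in the 4 F TLS libraries, against 0.577% to 0.681% in M Con, 0.214% to 0.417% in F Con, and 0.452% to 0.603% in T0. The 4 M Con cortex libraries therefore stood apart from the other Con libraries, and the counts of members called in cortex are given below with and without them.

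In cortex the members that changed were all higher in TLS than in Con. Of 38 members that passed the filter on low counts, 20 rose and 0 fell at an adjusted p below 0.05 (edgeR quasi-likelihood test, Benjamini-Hochberg adjustment over all 16609 genes tested), where 5.41% of all genes were called, 2.99% as higher. All 38 had a positive log2 fold change, from 0.05 for Mrc1 to 0.88 for Cd84, with a median of 0.41 against 0.0022 over all genes. In bulk tissue, more cells of a type and more RNA per cell cannot be told apart. Treatment and library number also cannot be separated in this comparison. The calls did not hold in every subset of libraries. Without the 4 M Con libraries, an alternative added after the data were seen, edgeR called 0 of the members and 1 gene in all, and the median log2 fold change was 0.38. In the F libraries alone 0 members and 2 genes were called, with a median of 0.43, and in the M libraries alone 18 members were called where 20.4% of all genes were. With that share of nuclear RNA added to the model 0 members and 2 genes were called, with a median of 0.30 and 35 positive values.

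Among the receptors, Cx3cr1, Csf1r and P2ry12 rose. Cx3cr1, the receptor for the neuronal chemokine fractalkine, had 53, 68.5 and 91.7 (69.6 ± 13.7) CPM in TLS cortex, against 40.7, 46.2 and 67.8 (48.7 ± 8.90) in Con and 37.3, 45.96 and 52.01 (45.02 ± 4.67) in T0. Its log2 fold change for TLS against Con was 0.52 ± 0.10 (SE, edgeR adjusted p = 0.00787). The 4 M TLS libraries all lay above the 4 M Con libraries, while 1 F Con library reached into the F TLS range. Csf1r, the receptor for Csf1 and Il34 on which microglia survival depends, had 102.8, 114.2 and 163.9 (121.1 ± 20.03) CPM in TLS, 70.2, 92.6 and 108.95 (90.8 ± 11.04) in Con and 87.7, 94.5 and 104.2 (95 ± 5.42) in T0. It rose by 0.41 ± 0.08 (SE, edgeR adjusted p = 0.00742), and TLS lay above Con within each sex although the ranges of all 8 overlapped. P2ry12, the ADP receptor that guides microglial processes to injury, had 24.5, 37.7 and 44.9 (37.5 ± 6.20) CPM in TLS, 23.5, 28.7 and 34.3 (28.8 ± 3.68) in Con and 20.6, 23.01 and 30.9 (23.7 ± 3.25) in T0, a log2 fold change of 0.38 ± 0.09 (SE, edgeR adjusted p = 0.0164). The lowest TLS value came from animal A5DA, in which 36 of the 39 members were above their cortex mean. The purinergic receptor P2ry13 and the lysophosphatidylserine receptor Gpr34 had log2 fold changes of 0.33 and 0.41 and missed the threshold (edgeR adjusted p = 0.0642 and 0.111).

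Of the 6 further surface or secreted markers, Tmem119, Olfml3 and Selplg rose. Tmem119, a membrane protein used as a microglia marker, had 25.8, 32.96 and 38.7 (33.2 ± 4.05) CPM in TLS, 23.03, 26.3 and 27.98 (26.1 ± 1.47) in Con and 18.95, 22.1 and 27.5 (22.6 ± 2.92) in T0, a log2 fold change of 0.35 ± 0.08 (SE, edgeR adjusted p = 0.0125). All 4 F TLS libraries were above all 4 F Con libraries. Olfml3, a secreted protein, and Selplg, the ligand of P-selectin, had log2 fold changes of 0.48 ± 0.11 (SE, edgeR adjusted p = 0.0164) and 0.32 ± 0.07 (SE, edgeR adjusted p = 0.0137). Log2 fold changes that were not called were 0.23 for Fcrls, 0.14 for the sialic acid binding lectin Siglech and 0.08 for the fructose transporter Slc2a5. Of the transcription factors, Sall1, which maintains microglial identity, and Ikzf1 rose by 0.38 ± 0.09 (SE, edgeR adjusted p = 0.0194) and 0.47 ± 0.13 (SE, edgeR adjusted p = 0.0303). Spi1, which encodes PU.1, and Irf8, which are required for microglia to form, had log2 fold changes of 0.36 and 0.30 that were not called.

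**Figure D1:**
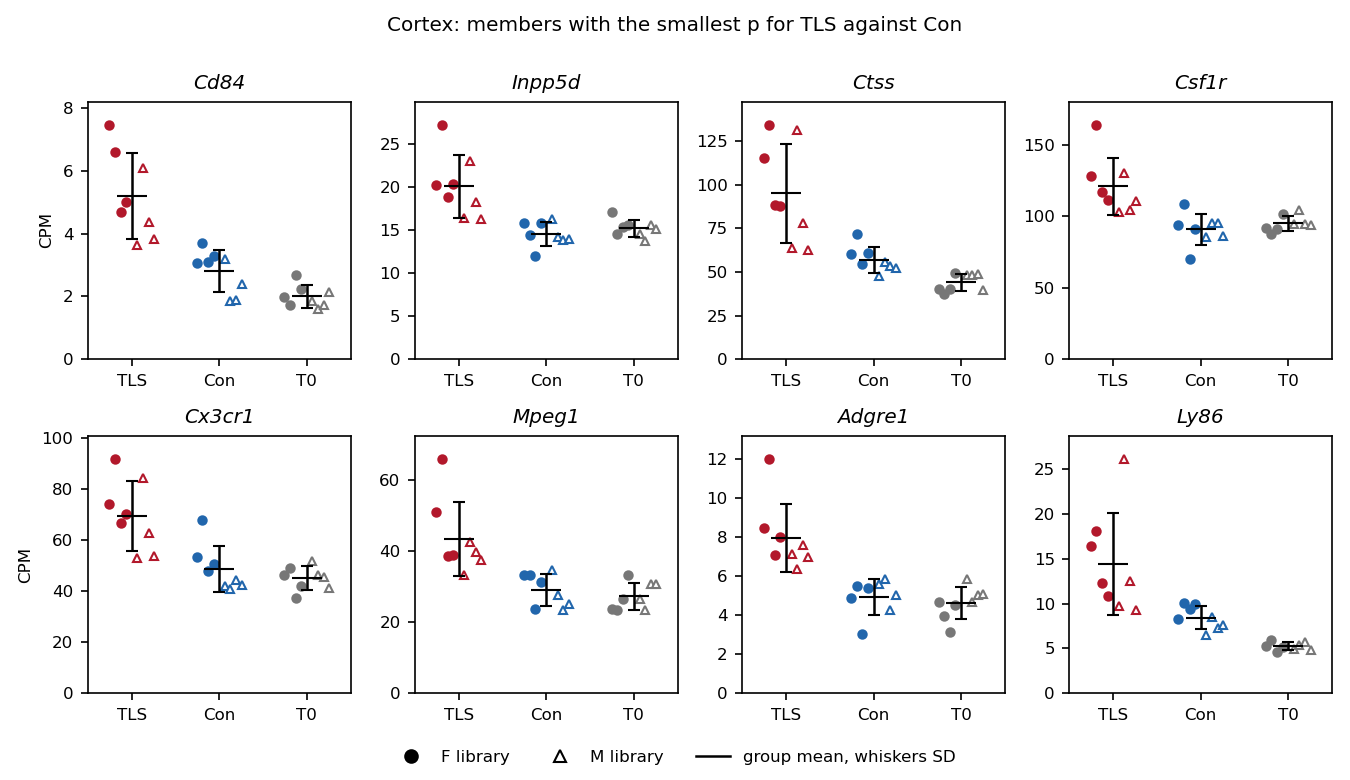
CPM in each cortex library for the 8 members with the smallest p for TLS against Con, with groups TLS, Con and T0 on the x axis, circles for F and triangles for M libraries, and the group mean with SD as whiskers. Inpp5d and Adgre1 are the 2 members in which every TLS library lies above every Con library.

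The largest rise was that of Cd84, which was placed in the list of ITAM-linked genes. Cd84, a SLAM-family receptor of leukocytes, had 3.65, 4.86 and 7.46 (5.21 ± 1.37) CPM in TLS, 1.87, 3.09 and 3.69 (2.81 ± 0.676) in Con and 1.60, 1.91 and 2.69 (1.999 ± 0.357) in T0. Its log2 fold change was 0.88 ± 0.15 (SE, edgeR adjusted p = 0.00205), on counts of 76 to 162 per TLS library. TLS lay above Con within each sex. Inpp5d, the inositol phosphatase that restrains ITAM signalling, had 16.3, 19.6 and 27.2 (20.1 ± 3.64) CPM in TLS, 12, 14.3 and 16.3 (14.5 ± 1.39) in Con and 13.7, 15.3 and 17.1 (15.2 ± 0.990) in T0, a rise of 0.46 ± 0.09 (SE, edgeR adjusted p = 0.00494). Every TLS library was above every Con library. The Fc receptor Fcgr3 rose by 0.72 ± 0.20 (SE, edgeR adjusted p = 0.0392), though reads of its close paralogs may be shared. The lipid receptor Trem2, its adaptor Tyrobp and the Fc receptor chain Fcer1g had log2 fold changes of 0.29, 0.30 and 0.57 and did not pass. Clec7a, a beta-glucan receptor that the GENCODE annotation lists as a polymorphic pseudogene, was under the count filter in cortex. It had 0.261, 1.07 and 3.94 (1.57 ± 1.43) CPM in TLS, 0.195, 0.379 and 0.469 (0.367 ± 0.0965) in Con and 0, 0.0565 and 0.256 (0.103 ± 0.0904) in T0, on 6 to 77 counts per TLS library and 3 to 10 per Con library, and it was not tested.

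Of the 3 subunits of C1q, the recognition molecule of the classical complement pathway, 2 were called. C1qb rose by 0.60 ± 0.16 (SE, edgeR adjusted p = 0.0366) and C1qc by 0.57 ± 0.14 (SE, edgeR adjusted p = 0.0224), and C1qa, at 0.60 ± 0.18 (SE, edgeR adjusted p = 0.0521), missed the threshold. The 4 F TLS libraries were above the 4 F Con libraries in each of the 3. Among lysosomal genes, the protease cathepsin S, Ctss, had 62.5, 88.1 and 134.3 (95.2 ± 28.5) CPM in TLS, 47.6, 55.2 and 71.97 (57.1 ± 7.43) in Con and 37.5, 44.2 and 49.2 (44.1 ± 5.02) in T0. It rose by 0.74 ± 0.14 (SE, edgeR adjusted p = 0.00694), with TLS above Con within each sex. Mpeg1, a pore-forming protein of phagosomes, had 33.3, 39.4 and 65.97 (43.5 ± 10.4) CPM in TLS, 23.6, 29.6 and 34.7 (29.1 ± 4.63) in Con and 23.4, 26.6 and 33.3 (27.3 ± 3.86) in T0, a rise of 0.57 ± 0.12 (SE, edgeR adjusted p = 0.00814). The highest M Con library overlapped the M TLS range. Cd68, a lysosomal membrane protein often read as a sign of phagocytic activity, had 6.94, 10.6 and 15.1 (10.5 ± 2.86) CPM in TLS, 8.24, 9.12 and 10.1 (9.20 ± 0.606) in Con and 7.14, 8.01 and 9.32 (7.98 ± 0.676) in T0 and did not pass, at 0.18 ± 0.12 (SE, edgeR adjusted p = 0.372). The Con range lay wholly inside the TLS range. Lgmn and Laptm5, a protease and a lysosomal membrane protein, had log2 fold changes of 0.27 and 0.32 with edgeR adjusted p of 0.0576 and 0.0502.

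Of the 7 leukocyte genes 5 rose. Adgre1, the adhesion receptor used to mark macrophages, had 6.36, 7.35 and 11.98 (7.95 ± 1.76) CPM in TLS, 3.05, 5.21 and 5.87 (4.95 ± 0.914) in Con and 3.12, 4.69 and 5.85 (4.62 ± 0.810) in T0, a rise of 0.68 ± 0.14 (SE, edgeR adjusted p = 0.00814). Every TLS library was above every Con library and every T0 library. Ly86, the partner protein of the Toll-like receptor homologue Cd180, had 9.30, 12.4 and 26.05 (14.4 ± 5.64) CPM in TLS, 6.46, 8.34 and 10.1 (8.43 ± 1.30) in Con and 4.58, 5.22 and 5.99 (5.24 ± 0.46604) in T0, a rise of 0.78 ± 0.16 (SE, edgeR adjusted p = 0.00988). Its highest value came from TLS animal A5DA, and T0 lay below every library of the other groups. Ptprc, the pan-leukocyte phosphatase, rose by 0.73 ± 0.21 (SE, edgeR adjusted p = 0.0362), the tetraspanin Cd53 by 0.61 ± 0.14 (SE, edgeR adjusted p = 0.0155) and the integrin Itgam by 0.58 ± 0.15 (SE, edgeR adjusted p = 0.0227). Aif1, which encodes the actin-binding protein Iba1 that is stained to count microglia, had 3.91, 6.30 and 8.86 (6.36 ± 1.65) CPM in TLS, 3.96, 5.18 and 6.91 (5.38 ± 1.02) in Con and 3.17, 4.01 and 6.72 (4.48 ± 1.26) in T0. It was not called, at 0.24 ± 0.17 (SE, edgeR adjusted p = 0.424), and its groups overlapped widely. The costimulatory gene Cd86 had a log2 fold change of 0.59 and missed the threshold as well (edgeR adjusted p = 0.0774).

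Neither gene of perivascular macrophages, which lie around brain vessels, was called. Mrc1, the mannose receptor, had 1.76, 3.35 and 4.11 (3.22 ± 0.850) CPM in TLS, 2.49, 3.12 and 3.91 (3.10 ± 0.569) in Con and 1.998, 2.75 and 4.26 (2.85 ± 0.693) in T0, a log2 fold change of 0.05 ± 0.17 (SE, edgeR adjusted p = 0.886). Cd163, the receptor that clears haemoglobin bound to haptoglobin, had 0.844, 1.45 and 2.12 (1.45 ± 0.365) CPM in TLS, 0.713, 0.968 and 1.67 (1.096 ± 0.348) in Con and 0.539, 0.904 and 1.88 (0.986 ± 0.400) in T0, a log2 fold change of 0.41 ± 0.24 (SE, edgeR adjusted p = 0.329). The groups overlapped for both, on 35 to 78 and 16 to 46 counts per TLS library. A list of 10 border macrophage genes summed to 10.1, 12.1 and 16.4 CPM in TLS cortex, 7.35, 10.5 and 13.1 in Con and 6.20, 7.49 and 11.0 in T0, and 0 of the 6 tested were called for TLS against Con, with 2 at an unadjusted p below 0.05.

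Libraries of TLS and Con were also set side by side within sex. In 2 of the 38 tested members every TLS library was above every Con library, where 0.126% of all genes tested were. In 18 members all 4 F TLS libraries were above all 4 F Con libraries, against 2.83% of all genes, and in 15 members the M libraries were separate in that way, against 8.36%. The difference between M and F in the TLS effect was tested directly: 0 of 38 members were called (edgeR), with 1 at an unadjusted p below 0.05, while 5.08% of all genes were called. DESeq2 called 0 as well. The median difference, M minus F, was -0.04 on the log2 scale.

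The mean log2 deviation of the 39 members from their cortex mean, computed on log2(CPM + 1), summarises each library. It was 0.28 to 0.69 in F TLS libraries and 0.03 to 0.59 in M TLS libraries, against -0.10 to 0.09 in F Con, -0.16 to -0.11 in M Con and -0.40 to -0.14 in T0. TLS lay above Con within each sex, and every T0 library lay below every TLS library. The 4 M Con libraries had both the highest nuclear RNA share and the lowest member level of Con. The part that this share has in the difference was not tested beyond the covariate above.

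**Figure D2:**
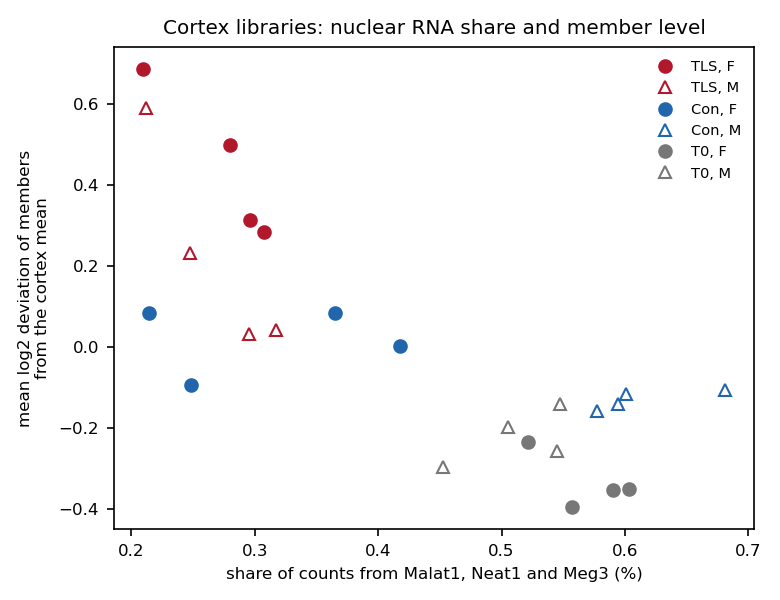
Each point is 1 of 24 cortex libraries, placed by the counts of Meg3, Neat1 and Malat1 as a share of the library (x axis, percent) and the mean log2 deviation of the 39 members from the cortex mean (y axis), with colour for the group and shape for the sex label. The TLS and F Con libraries overlap along the x axis between 0.214% and 0.318%. The TLS libraries of F lie above the F Con libraries there. The M TLS libraries DDF3 (0.031) and 47BE (0.042) lie below the F Con library A123 (0.085).

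The starts of several of these genes carry the core site of PU.1, the factor encoded by Spi1, and a few are shown. A link between the site and the change in TLS was not tested. RefSeq promoter sequence (GRCm38.p6) was matched for 30 of the 39 members and searched over the 250 bases before the start site, on both strands, for GAGGAA and, separately, for the composite ETS-IRF site that PU.1 and Irf8 share. GAGGAA was present before 16 of the 30 matched members, 53.3%, and before 25.9% of 27025 genes with a promoter in the table. The composite site was present before 1 member, Clec7a, 3.33%, and before 2.68% of genes. The 2 motifs were counted separately, since they can share bases. A match describes the letters in this window and not binding. The windows below run in the direction of the gene, with the match in capitals, for genes of 5 roles: Inpp5d (chr1:87620267-87620311, plus strand, match 20 bases before the start), Ctss (chr3:95526597-95526652, plus strand, 164 bases), Cd53 (chr3:106790158-106790213, minus strand, 39 bases), P2ry13 (chr3:59210900-59210955, minus strand, 48 bases), C1qb (chr4:136886201-136886255, minus strand, 30 bases) and Itgam (chr7:128062531-128062586, plus strand, 84 bases).
Inpp5d: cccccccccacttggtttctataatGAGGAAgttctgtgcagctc
Ctss: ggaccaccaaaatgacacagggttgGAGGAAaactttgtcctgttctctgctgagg
Cd53: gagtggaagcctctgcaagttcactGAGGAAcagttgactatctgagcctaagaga
P2ry13: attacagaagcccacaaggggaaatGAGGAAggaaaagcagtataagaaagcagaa
C1qb: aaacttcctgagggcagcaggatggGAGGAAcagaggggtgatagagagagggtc
Itgam: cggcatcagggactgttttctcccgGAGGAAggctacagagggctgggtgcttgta
Of these 6 genes, P2ry13 alone did not pass the test for TLS against Con in cortex. Over all matched members, 8 of the 16 with GAGGAA rose, and 8 of the 14 without it rose. Clec7a, which has the site, was not tested, so 15 of the 16 were tested. The 8 that rose without it were Cd84, Cx3cr1, Ikzf1, Ly86, Mpeg1, Olfml3, P2ry12 and Sall1.

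Age and 3 months without TLS separate Con from T0, and in F cortex libraries the library number does so as well. Con was compared with T0 in the same fit, so this comparison shares the Con libraries with the one above and the T0 libraries with the next. Of 38 members 7 rose and 0 fell, where 21.2% of all genes were called, 10.8% as higher. They were Siglech, Tyrobp, Ly86, Trem2, Cd84, P2ry12 and Gpr34, 3 of them (Tyrobp, Trem2 and Cd84) from the ITAM-linked list. Siglech had 12.9, 15.7 and 16.6 (15.1 ± 1.39) CPM in Con against 9.59, 11.2 and 12.5 (11.1 ± 1.08) in T0, with 13.6, 17.01 and 19.4 (16.6 ± 2.25) in TLS. It rose by 0.43 ± 0.09 (SE, edgeR adjusted p = 0.00102), and every Con library was above every T0 library. Tyrobp, the adaptor that carries the ITAM for Trem2, had 10.4, 12.5 and 15.3 (12.8 ± 2.01) CPM in Con against 5.30, 8.18 and 10.3 (8.01 ± 2.01) in T0, with 12.6, 15.7 and 20.4 (15.7 ± 2.54) in TLS. It rose by 0.67 ± 0.14 (SE, edgeR adjusted p = 0.00132), again without overlap. Ly86, whose values are above, rose by 0.68 ± 0.17 (SE, edgeR adjusted p = 0.00619) and was the third member without overlap, where 1.55% of all genes had every Con library above every T0 library. The other 4 had log2 fold changes of 0.41 for Trem2, 0.48 for Cd84, 0.26 for P2ry12 and 0.44 for Gpr34. The median over the members was 0.21, against -0.0016 over all genes, and 34 were positive. In the F libraries alone 11 members rose where 17.8% of all genes were called, and the median was 0.41. In the M libraries alone 2 rose where 6.95% of all genes were called, and the median was 0.05. Without the 4 M Con libraries 5 rose where 18.5% of all genes were called, and the median was 0.30.

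TLS against T0 spans both time and treatment, and in M libraries the library numbers of TLS and T0 do not overlap. Of 38 members 34 rose and 0 fell, where 35.7% of all genes were called, 18.1% as higher, and the median log2 fold change was 0.64 against -0.0036 over all genes. Cd163, Fcrls, Slc2a5 and Mrc1 were the 4 not called, with values from 0.17 for Mrc1 to 0.56 for Cd163. Ly86 rose by 1.45 ± 0.17 (SE, edgeR adjusted p = 8.18e-07), Cd84 by 1.36 ± 0.15 (SE, edgeR adjusted p = 3.64e-07) and Fcgr3 by 1.19 ± 0.21 (SE, edgeR adjusted p = 0.000128). In 13 members every TLS library was above every T0 library, against 3.31% of all genes. With that share of nuclear RNA added to the model 9 members were called where 4.86% of all genes were, and in the M libraries alone 18 were where 17.8% of all genes were. Without the 4 M Con libraries 35 of 39 were called, where 34.9% of all genes were.

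**Figure D3:**
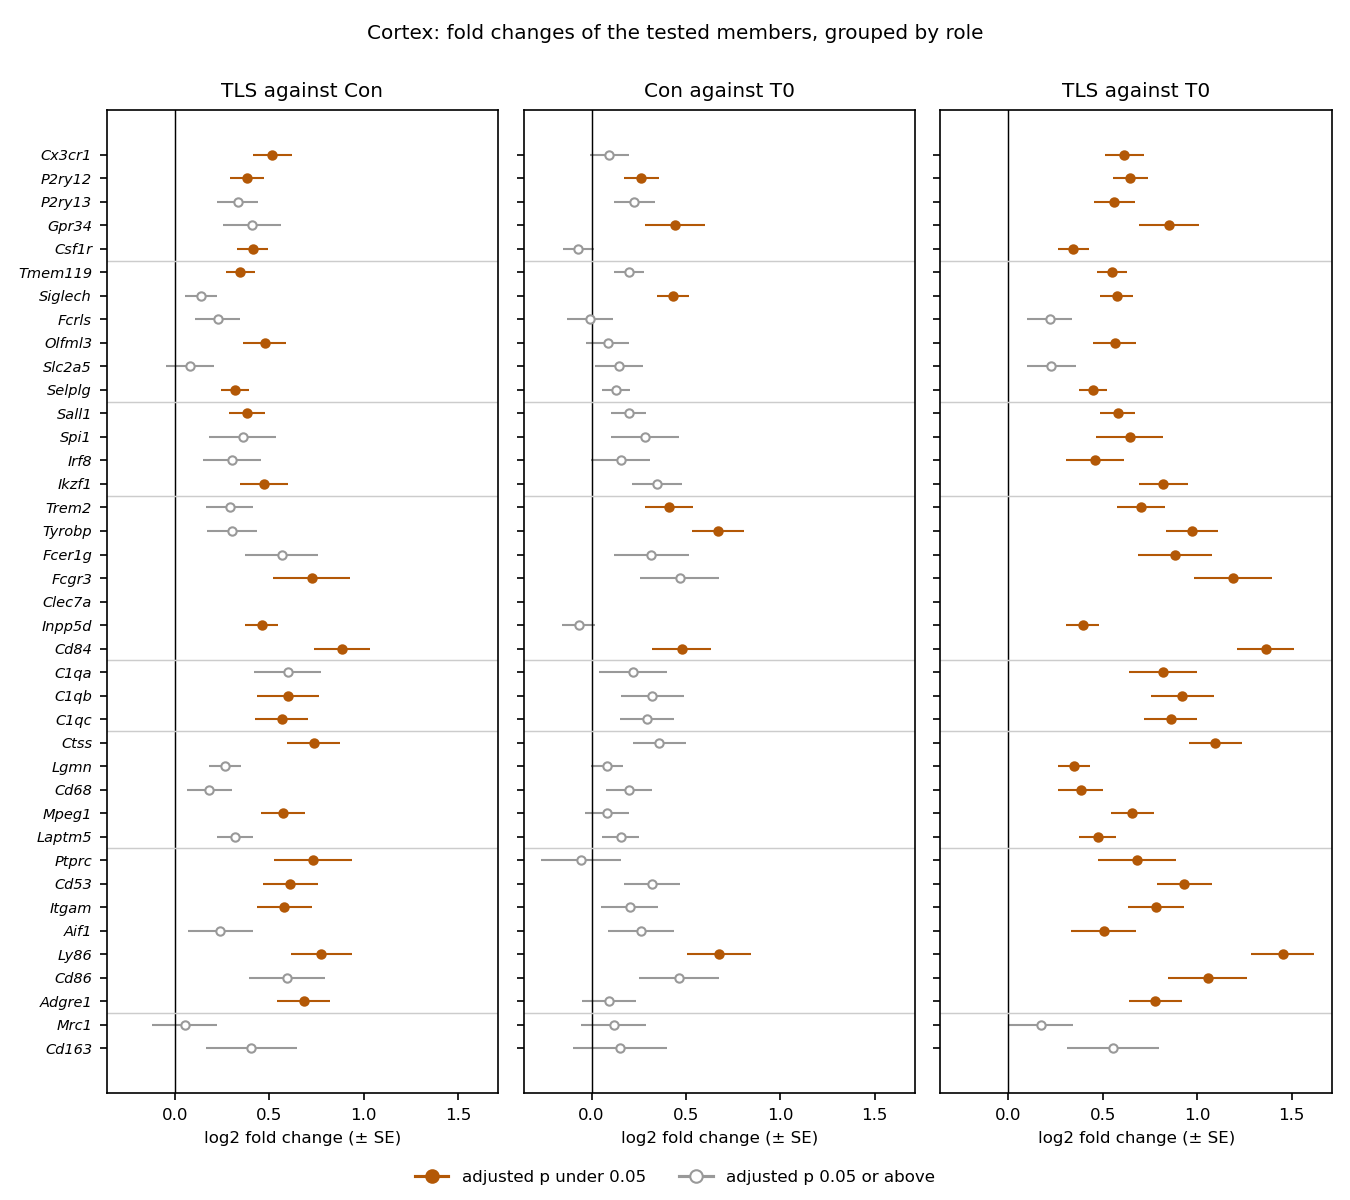
Log2 fold changes in cortex with their SE (x axis) for the members, one gene a line and grouped by role, in 3 panels for TLS against Con, Con against T0 and TLS against T0. Filled points passed an adjusted p of 0.05: 20, 7 and 34 of 38, all to the right of 0, and Clec7a, which was not tested, has no point.

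Genes of the same cells and pathways that are not among the 39 were read from lists. Of 20 other microglia genes all 20 had a positive log2 fold change for TLS against Con in cortex and 8 rose, with a median of 0.36. Among them the membrane-shaping gene Bin2 rose by 0.81 ± 0.17 (SE, edgeR adjusted p = 0.00937). Of 16 tested genes linked to reactive microglia 3 rose, the lysozyme gene Lyz2 by 0.96 ± 0.19 (SE, edgeR adjusted p = 0.00814), Cd9 by 0.51 ± 0.12 (SE, edgeR adjusted p = 0.0134) and the protease Ctsl, named after its value was seen, by 0.25 ± 0.07 (SE, edgeR adjusted p = 0.044). Of 12 further complement genes 2 rose, among them C4b, a classical pathway component, by 1.07 ± 0.22 (SE, edgeR adjusted p = 0.0113). Of 8 tested cytokine and pattern receptor genes Tlr7 alone rose, by 0.66 ± 0.17 (SE, edgeR adjusted p = 0.0248), and Tlr2 had 1.06 ± 0.35 (SE, edgeR adjusted p = 0.0682). Of 17 tested genes of the Csf1r and TGF-beta axis 0 were called for TLS against Con (edgeR), with 6 at an unadjusted p below 0.05, led by the receptor Tgfbr2 at 0.44 ± 0.14 (SE, edgeR adjusted p = 0.066) and the ligand Csf1 at 0.29 ± 0.10 (SE, edgeR adjusted p = 0.0668).

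Markers of other blood and brain cells were read in the same cortex libraries. Of 12 neutrophil genes 3 were tested and S100a9 rose, by 3.10 ± 0.78 (SE, edgeR adjusted p = 0.0264). The list summed to 8.58, 13.6 and 126.8 CPM in TLS, 9.23, 9.67 and 11.8 in Con and 7.37, 8.28 and 15.4 in T0, and the highest TLS value was that of A5DA, with the next at 19.97. Of 11 monocyte genes 3 were tested and 0 called, with 0 at an unadjusted p below 0.05, and their sums were 36.8, 47.9 and 97.2 CPM in TLS, 33.3, 50.2 and 68.3 in Con and 47.9, 58.9 and 71.6 in T0. Of the T, NK and B cell genes 3 of 17 were tested and 0 called, and of the dendritic cell genes 4 of 10 and 0, with 0 at an unadjusted p below 0.05 in each. Haemoglobin genes summed to 33.1, 61.7 and 151 CPM in TLS, 7.82, 22.9 and 135.01 in Con and 26.9, 39.9 and 76.97 in T0. Of 10 Kupffer cell genes 3 were at 0 in every TLS cortex library, and 0 of the 4 tested were called, with 0 at an unadjusted p below 0.05. Glial lists moved in part: 4 of 10 oligodendrocyte genes rose, among them Ugt8a by 0.95 ± 0.14 (SE, edgeR adjusted p = 0.00163), as did 3 of 10 astrocyte genes, Slc1a3 by 0.36 ± 0.08 (SE, edgeR adjusted p = 0.0136) and Slc1a2 by 0.35 ± 0.08 (SE, edgeR adjusted p = 0.0157). Of 8 neuronal genes and 10 endothelial genes edgeR called 0 in either list, with 2 and 1 at an unadjusted p below 0.05. The part of these cells in the members' difference was not tested. Leaving out TLS animals A5DA and E46E, an alternative added after the data were seen, 9 members were called where 0.795% of all genes were, and the median log2 fold change was 0.41. Leaving out A5DA alone, 15 were called where 2.69% of all genes were.

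The level of the members before treatment differed between tissues. At T0, in a joint fit of all 95 libraries, 12 members were higher and 14 lower in cortex than in the mean of the other 3 tissues, where 77.6% of all genes differed, 41.0% as higher and 36.6% as lower in cortex. P2ry12 was higher in cortex by 4.60 ± 0.27 (SE, edgeR adjusted p = 1.41e-28), Cx3cr1 by 4.35 ± 0.40 (SE, edgeR adjusted p = 7.08e-17) and Fcrls by 4.0023 ± 0.35 (SE, edgeR adjusted p = 3.40e-18). Mrc1 had -3.15 ± 0.26 (SE, edgeR adjusted p = 3.58e-19) and Cd163 -3.02 ± 0.38 (SE, edgeR adjusted p = 2.23e-11) in the same contrast, that is, lower in cortex. The mean of the other tissues is a mean of log2 levels, so a tissue near 0 weighs heavily. At T0, Fcrls had 17.7 to 28.1 CPM in cortex, 0.070 to 0.904 in kidney and 0 to 0.316 in liver. In WAT it had 37.4 to 75.2 CPM, above every cortex library. By median CPM cortex ranked first in 6 members (Cx3cr1, P2ry12, P2ry13, Gpr34, Siglech and Selplg), 4 of them with every cortex library above every library of the next tissue. Kidney ranked first in 4 (Olfml3, Slc2a5, Sall1 and Lgmn), 2 of them without overlap, and WAT in the other 29, 24 without overlap. These are levels of bulk tissue, and whether macrophages or other cells of an organ carry them was not tested. Tmem119 and Fcrls were among the 29: Tmem119 had 29.4, 51.9 and 90.4 (54.4 ± 20.2) CPM in WAT, 18.95, 22.1 and 27.5 (22.6 ± 2.92) in cortex, 9.09, 14.9 and 26.3 (15.3 ± 5.26) in kidney and 0.128, 0.399 and 1.18 (0.490 ± 0.312) in liver at T0. Cortex and kidney overlapped. P2ry12 had 20.6, 23.01 and 30.9 (23.7 ± 3.25) CPM in cortex, 1.75, 4.62 and 5.91 (4.30 ± 1.36) in WAT, 0.411, 0.760 and 1.03 (0.750 ± 0.202) in liver and 0, 0.0773 and 0.263 (0.106 ± 0.0967) in kidney, with no overlap between neighbours in that order. Per kilobase of exon the highest median of the 39 in T0 cortex was that of Lgmn, at 41.3 CPM per kb, followed by C1qa at 37.97 and C1qb at 37, and the lowest that of Clec7a at 0.0214.

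**Figure D4:**
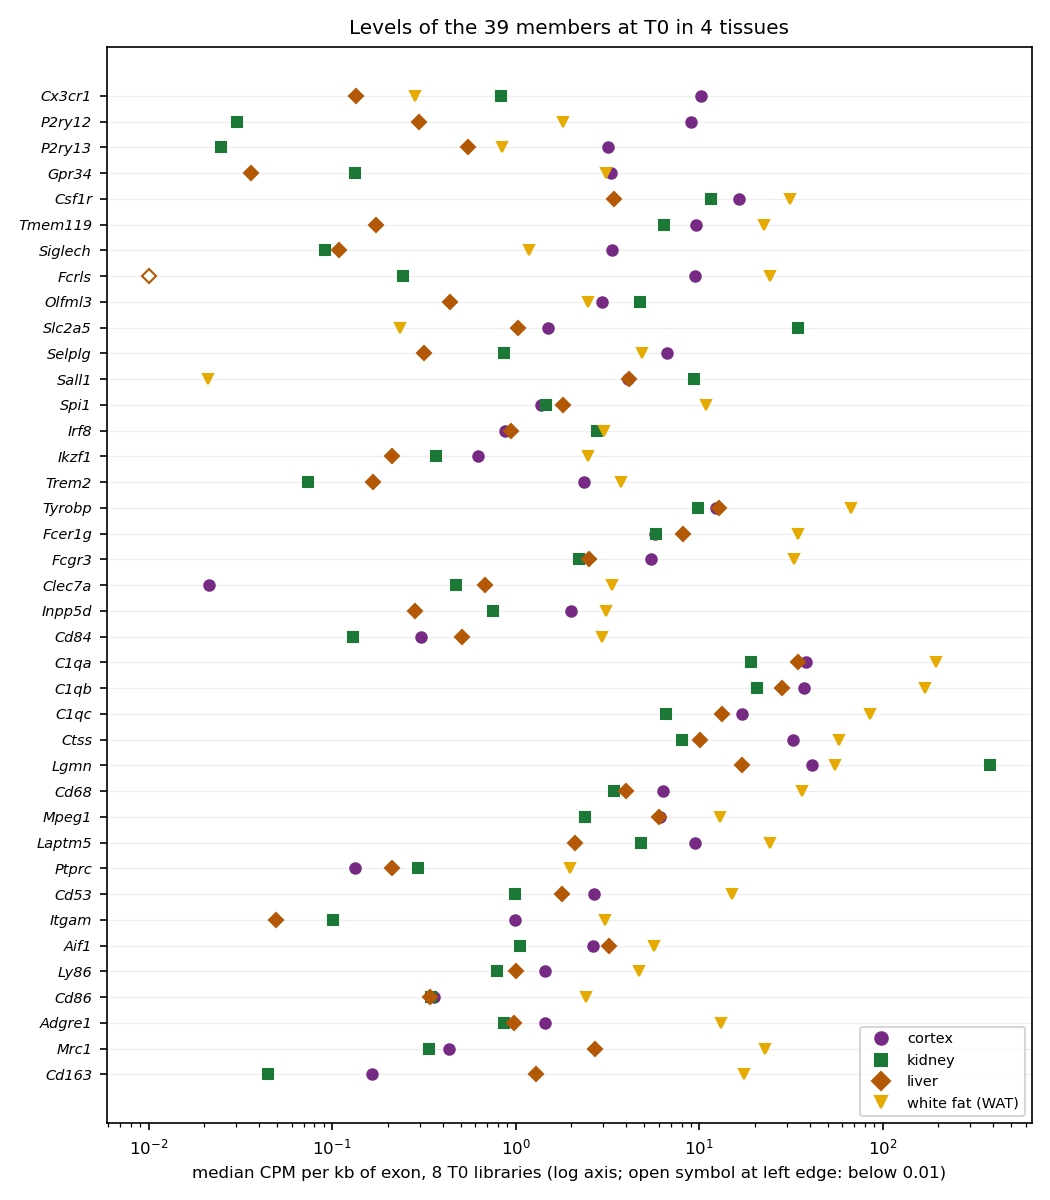
Median CPM per kilobase of exon over 8 T0 libraries (log x axis) for the 39 members, one a line and in role order, with a symbol for each of 4 tissues. WAT has the highest median for 29 members, cortex for 6 and kidney for 4.

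In kidney 0 of 33 tested members were called for TLS against Con, where 0.231% of all genes were, with 4 at an unadjusted p below 0.05, and DESeq2 called 0. The 6 not tested were P2ry12, P2ry13, Gpr34, Siglech, Fcrls and Cd163. The smallest p belonged to Csf1r, with 46.3, 66.6 and 103.9 (69.1 ± 19.01) CPM in TLS, 53.02, 78.2 and 132.4 (85.9 ± 32.7) in Con and 37.8, 67.1 and 90.4 (66.5 ± 16.7) in T0 and a log2 fold change of -0.35 ± 0.11 (SE, edgeR adjusted p = 0.236). Olfml3 had 21.6, 28.9 and 52.8 (31.2 ± 10.4) CPM in TLS, 25.4, 36.8 and 50.7 (36.95 ± 8.36) in Con and 21.8, 29.3 and 46 (32.2 ± 8.50) in T0, at -0.36 ± 0.12 (SE, edgeR adjusted p = 0.334). Slc2a5, which in kidney is a gene of the proximal tubule, had 21.2, 79.9 and 107.7 (77.7 ± 27.99) CPM in TLS, 67.3, 93.8 and 115.2 (94.8 ± 14.2) in Con and 66.3, 117.7 and 139.03 (112.04 ± 25.5) in T0, at -0.39 ± 0.18 (SE, edgeR adjusted p = 0.572). All 3 were lower in the TLS median and overlapped between groups. The median over the members was 0.33, and -0.20 without TLS animal A5DA. For Con against T0 and TLS against T0, which share libraries with it, 0 members were called in each, where 0.312% and 0.681% of all genes were, with 10 and 20 at an unadjusted p below 0.05. DESeq2 called 0 and 5. The share of all genes at an unadjusted p below 0.05 was not taken, and that of DESeq2 is not given here. These member counts therefore have no baseline.

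In liver 1 of 36 tested members was called, Mrc1, which fell, where 1.95% of all genes were called, 1.26% as lower. In this organ the gene marks sinusoidal endothelial cells as well as macrophages. It had 11.96, 17.9 and 27.2 (17.8 ± 5.48) CPM in TLS, 18.5, 26.04 and 39.9 (26.3 ± 6.92) in Con and 13.3, 17.2 and 41.7 (20.3 ± 9.29) in T0, a log2 fold change of -0.73 ± 0.20 (SE, edgeR adjusted p = 0.0492). The groups overlapped, and the T0 median was nearer to that of TLS than to that of Con. Leaving out 1 library at a time, the call was lost in 13 of 16 cases, while the value stayed between -0.82 and -0.65. Cx3cr1 had 0.248, 0.782 and 10.1 (2.05 ± 3.31) CPM in TLS, 0.294, 0.446 and 1.49 (0.565 ± 0.385) in Con and 0.192, 0.604 and 1.74 (0.708 ± 0.480) in T0, on 1 to 154 counts per TLS library, at 1.58 ± 0.59 (SE, edgeR adjusted p = 0.159). The transcription factor gene Irf8 had 5.29, 7.28 and 55.1 (14.3 ± 16.9) CPM in TLS, 4.25, 5.90 and 12.6 (6.71 ± 2.65) in Con and 4.09, 6.62 and 8.08 (6.29 ± 1.43) in T0, at 0.88 ± 0.34 (SE, edgeR adjusted p = 0.177). The highest value of both came from 1 F TLS animal, B4B9. Over the members the median was 0.41, and -0.25 without A5DA. Con against T0 and TLS against T0 had 0 called by edgeR, where 0.529% and 1.34% of all genes were called, with 1 and 13 at an unadjusted p below 0.05. DESeq2 called 1 and 2. As in kidney, no share of all genes stands beside the unadjusted and DESeq2 counts.

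In WAT 0 of 39 members were called for TLS against Con, where 0.00596% of all genes were, with 4 at an unadjusted p below 0.05, and DESeq2 called 0. Tmem119 had 21.6, 60.7 and 137.03 (72.8 ± 45.2) CPM in TLS, 12.6, 46.3 and 78.9 (45.1 ± 27.6) in Con and 29.4, 51.9 and 90.4 (54.4 ± 20.2) in T0, at 0.84 ± 0.26 (SE, edgeR adjusted p = 0.241). F libraries were higher than M libraries in the median of each group. Fcrls had 13.3, 23.1 and 65.4 (29.6 ± 19.6) CPM in TLS, 25.7, 49.1 and 82.9 (49.3 ± 19.5) in Con and 37.4, 56.4 and 75.2 (56.2 ± 12.7) in T0, at -0.76 ± 0.25 (SE, edgeR adjusted p = 0.265). Sall1 had 0.0630, 0.763 and 8.31 (1.96 ± 2.75) CPM in TLS, 0, 0.0986 and 1.07 (0.265 ± 0.388) in Con and 0, 0.111 and 1.37 (0.269 ± 0.454) in T0, at 2.25 ± 0.91 (SE, edgeR adjusted p = 0.359), with the highest TLS value in animal 47BE. The groups of all 3 overlapped. Con against T0 and TLS against T0 had 0 called by edgeR, where 0.161% and 0.226% of all genes were called, with 2 and 10 at an unadjusted p below 0.05, and DESeq2 called 0 and 2. Here too the unadjusted and DESeq2 counts have no share of all genes beside them.

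TLS animal A5DA stood apart from the other TLS animals in kidney and WAT. The mean log2 deviation of its 39 members was 1.94 in WAT, 1.43 in kidney and 0.94 in liver. The other 7 TLS animals lay between -0.49 and 0.68 in kidney, -0.84 and 1.06 in liver and -0.49 and 0.38 in WAT, and B4B9 was the highest in liver. The Con libraries lay between -0.47 and 0.47, -0.50 and 0.88, and -0.41 and 0.36 in the same tissues. In WAT of A5DA, Csf1r was at 712.6 CPM, against 241.6 in the next TLS library, and Aif1 at 135.1 against 15.1. Its neutrophil gene list summed to 1422 CPM in kidney, to 6231 in liver and to 3223 in WAT, against a next highest TLS value of 20.7, 40.4 and 155, and the highest Con value of 8.36, 12.7 and 45.0. In WAT its T, NK and B cell list summed to 339.6 CPM, against 81.4 in the next TLS library and at most 55.7 in Con. Its kidney library also had the highest nuclear RNA share of that tissue, 0.959% against 0.612% in the next library. The median log2 fold change of the members in WAT was 0.44 with this animal and -0.14 without it. The part of these cells and of that share in the members' levels was not tested.

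**Figure D5:**
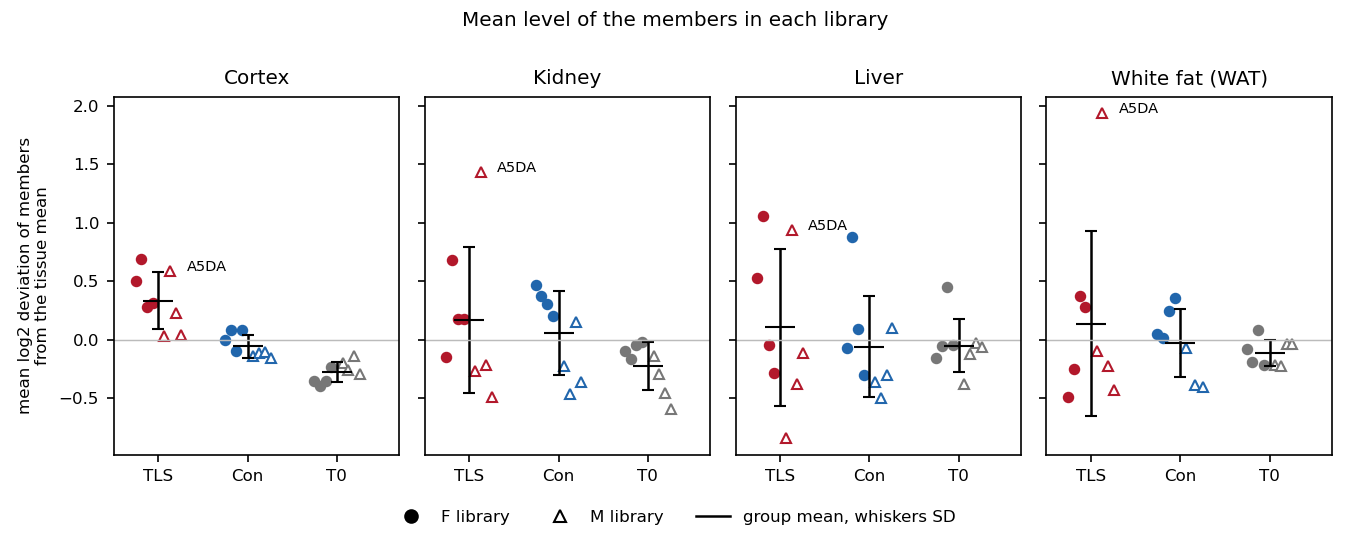
Mean log2 deviation of the 39 members from the mean of their tissue (y axis) in each library, by group on the x axis and with 1 panel a tissue, circles for F and triangles for M, and the group mean with SD as whiskers. TLS lies highest in cortex within each sex, and in kidney and WAT 1 TLS animal, A5DA, lies above all others.

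The other members that were read in every tissue are given here for kidney, liver and WAT, and none but Mrc1 in liver was called for TLS against Con. Aif1 had 1.67, 4.02 and 31.4 (7.72 ± 9.99) CPM in TLS kidney, 2.60, 4.12 and 7.68 (4.56 ± 1.62) in Con and 1.23, 1.62 and 4.14 (2.13 ± 1.09) in T0. Cd68 had 2.55, 5.23 and 23.3 (7.25 ± 6.82) CPM in TLS kidney, 2.33, 4.90 and 6.53 (4.64 ± 1.40) in Con and 3.10, 4.31 and 5.98 (4.41 ± 0.943) in T0. Cx3cr1 had 3.63, 6.90 and 44.7 (12.2 ± 13.7) CPM in TLS kidney, 3.30, 7.41 and 13.6 (7.15 ± 3.42) in Con and 2.52, 3.76 and 6.83 (4.22 ± 1.37) in T0. In all 3 the highest TLS value was that of A5DA and the TLS median lay within the Con range. Tmem119 had 8.91, 15.1 and 27.3 (16.4 ± 6.74) CPM in TLS kidney, 11.6, 16.2 and 22.6 (16.7 ± 4.20) in Con and 9.09, 14.9 and 26.3 (15.3 ± 5.26) in T0. Mrc1 had 1.67, 2.41 and 7.40 (3.14 ± 1.88) CPM in TLS kidney, 0.890, 2.74 and 4.99 (2.82 ± 1.41) in Con and 1.33, 2.15 and 3.58 (2.28 ± 0.802) in T0. Cd163 had 0, 0.153 and 0.334 (0.147 ± 0.115) CPM in TLS kidney, 0, 0.0935 and 0.209 (0.0984 ± 0.0810) in Con and 0, 0.244 and 0.904 (0.325 ± 0.320) in T0. The groups overlapped in each. P2ry12 had 0, 0.269 and 0.334 (0.218 ± 0.141) CPM in TLS kidney, 0.0750, 0.185 and 0.448 (0.232 ± 0.137) in Con and 0, 0.0773 and 0.263 (0.106 ± 0.0967) in T0. It and Cd163 were under the count filter in kidney.

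Liver levels of these genes overlapped between TLS and Con in the same way. Aif1 had 1.60, 6.21 and 27.7 (9.64 ± 9.19) CPM in TLS liver, 4.39, 7.41 and 12.4 (7.45 ± 2.61) in Con and 3.58, 4.93 and 8.45 (5.08 ± 1.54) in T0. Cd68 had 1.89, 5.30 and 16.9 (7.40 ± 5.52) CPM in TLS liver, 2.14, 4.43 and 13.3 (5.80 ± 4.17) in Con and 4.61, 5.03 and 8.27 (5.70 ± 1.42) in T0. Csf1r had 9.57, 18.3 and 54.6 (26.9 ± 18.4) CPM in TLS liver, 7.67, 16.5 and 68.4 (22.97 ± 20.1) in Con and 15.8, 19.8 and 28.8 (20.3 ± 4.57) in T0. The TLS median lay within the Con range for all 3. Cd163 had 2.62, 4.12 and 12.3 (5.89 ± 3.54) CPM in TLS liver, 2.96, 4.54 and 14.2 (5.52 ± 3.66) in Con and 4.88, 7.04 and 9.23 (7.17 ± 1.67) in T0. Tmem119 had 0, 0.437 and 1.55 (0.577 ± 0.516) CPM in TLS liver, 0, 0.482 and 0.776 (0.415 ± 0.309) in Con and 0.128, 0.399 and 1.18 (0.490 ± 0.312) in T0. P2ry12 had 0, 0.462 and 1.05 (0.506 ± 0.337) CPM in TLS liver, 0.237, 0.569 and 1.29 (0.660 ± 0.425) in Con and 0.411, 0.760 and 1.03 (0.750 ± 0.202) in T0. Tmem119 and P2ry12 rested on 0 to 31 and 0 to 19 counts per TLS library in this organ.

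In WAT the highest TLS library was A5DA for each of the genes that follow. Aif1 had 7.94, 12.98 and 135.1 (26.99 ± 43.7) CPM in TLS WAT, 6.32, 12.3 and 17.1 (12.3 ± 3.80) in Con and 6.29, 8.68 and 12.04 (8.60 ± 1.83) in T0. Cd68 had 23.9, 46.6 and 163.6 (61.3 ± 44.8) CPM in TLS WAT, 31.9, 50.3 and 64.2 (50.5 ± 10.1) in Con and 31.8, 45.6 and 58.4 (44.95 ± 9.76) in T0. Csf1r had 86.7, 135.6 and 712.6 (217.4 ± 208.1) CPM in TLS WAT, 101.5, 145.6 and 221.3 (152.98 ± 40.3) in Con and 106.6, 180.6 and 240.9 (180.8 ± 49.6) in T0. The TLS median lay within the Con range for all 3. Mrc1 had 82.3, 129.2 and 387.5 (161.1 ± 102.5) CPM in TLS WAT, 101.6, 136.3 and 224.8 (148.3 ± 47.3) in Con and 51.1, 145.2 and 208.3 (139.2 ± 45.5) in T0. Cd163 had 42.2, 82.1 and 168.1 (87.2 ± 45.3) CPM in TLS WAT, 46.5, 75.7 and 126.5 (85.4 ± 32.2) in Con and 24.3, 96.1 and 146.4 (90.4 ± 36.7) in T0. Cx3cr1 had 1.75, 2.23 and 33.4 (6.35 ± 10.96) CPM in TLS WAT, 0.902, 1.26 and 3.55 (1.60 ± 0.901) in Con and 0.667, 1.28 and 16.9 (3.22 ± 5.55) in T0. Cx3cr1 was also high in T0 animal T0_6, whose neutrophil list summed to 5420 CPM, against 73.8 in the next T0 library. P2ry12 had 1.13, 3.88 and 11.4 (4.66 ± 3.06) CPM in TLS WAT, 3.07, 4.84 and 7.64 (4.95 ± 1.40) in Con and 1.75, 4.62 and 5.91 (4.30 ± 1.36) in T0. Without T0_6, an alternative added after the data were seen, edgeR called 0 members for Con against T0, with a median log2 fold change of 0.16, and 1 for TLS against T0, Fcrls, which was lower in TLS, with a median of 0.54. Fcrls is named here after its value was seen.

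Whether the TLS effect differed between cortex and the other tissues was tested in the joint fit. For the cortex effect minus the mean effect in kidney, liver and WAT, 0 of 39 members were called (edgeR), with 2 at an unadjusted p below 0.05, and 0.0191% of all genes were. The lowest adjusted p was that of Clec7a, at 1.82 ± 0.57 (SE, edgeR adjusted p = 0.221), and the median over the members was 0.07. With the animal as a replicate block 0 were called and the median was 0.30, and without A5DA 0 were called and the median was 0.52. A difference between the rise in cortex and the change elsewhere is therefore not shown.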

How the data were processed

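Gene-level read counts were deposited by the authors as 1 table of 95 mouse libraries, with no normalization. The submitters' processing notes name STAR 2.7.10, DESeq2, DESeq and the builds mm10 and GRCm38. The annotation and strand setting of the counting are not given in the sources used here, nor is the meaning of the word "corrected" in the first line of the table. F and M come from the labels, and 0 libraries went against them. Kidney libraries of T0 animals T0_4 and T0_5 carry the opposite letters from their other tissues. All 329 pairs of libraries of 1 group differed by more than sampling noise.

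The counts were fitted per tissue in R 4.3.3 with edgeR 4.0.16 (limma 3.58.1), with TMM factors, a filter on low counts (filterByExpr, minimum count 10), sex as a covariate, all 3 groups together and the robust quasi-likelihood test. P-values were adjusted by Benjamini-Hochberg over all genes of the fit, with 0.05 as the threshold, and SE was taken as the size of the log2 fold change over the root of F. Genes tested were 16784 in WAT, 13604 in liver, 16005 in kidney and 16609 in cortex. A joint fit of all libraries gave the tissue comparisons. The steps were tested on simulated data. Alternatives were DESeq2 1.42.0, RLE factors, other filters, no sex covariate, the 2 groups alone, each sex alone, the nuclear RNA share as covariate and leaving out each library. Deviations of libraries from the same animal in different tissues correlated at a mean r of 0.053 over 11856 genes in pairs of libraries, against -0.015 between different animals of a group with 1 sex label. The animal codes in the labels give this pairing, and the joint fit with the animal as a replicate block changed no call count by over 1.5 times.

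The members, the other gene lists and the alternatives were chosen with earlier results of these data known. Values in full are given for the 8 members with the smallest p for TLS against Con in cortex, up to 3 in each other tissue and up to 3 for Con against T0 in cortex, and for Cx3cr1, Tmem119, P2ry12, Csf1r, Aif1, Cd68, Mrc1 and Cd163. From the lists of other genes up to 2 with the smallest p are named. Some genes of these lists are counted but not reported by name here.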

Additional observations from a re-analysis of the deposited data

Results flagged for a closer look

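The mean deviation of the members and the CPM of the genes given in full for a tissue were screened, not those of every member. A library is given here when it stood apart from the other libraries of its group and tissue. Its gap to the nearest one then exceeded Dixon's critical value at 95%. This was so for 32 of 147 groups of values screened, and 11 of the 32 were TLS libraries of animal A5DA. Chance gives about 1 in 20 for normally distributed values. The CPM were screened without a log transform, so that rate need not hold for them. The genes of an animal are not independent, and no cause was tested.

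In WAT, A5DA had a mean log2 deviation of the members of 1.94, against 0.38 for the next TLS animal. Its WAT levels were 135.1 CPM for Aif1, 163.6 for Cd68, 712.6 for Csf1r, 33.4 for Cx3cr1 and 387.5 for Mrc1, where the next TLS library had 15.1, 71.6, 241.6, 4.10 and 221.8. Its kidney levels were 31.4 CPM for Aif1, 23.3 for Cd68, 44.7 for Cx3cr1 and 7.40 for Mrc1, where the next had 10.8, 9.004, 16.6 and 3.97. In cortex the same animal was the lowest TLS library for P2ry12, at 24.5 CPM against 35.8 for the next.

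TLS animal B4B9 was highest in cortex for Adgre1 at 11.98 CPM and for Csf1r at 163.9, and in liver for Cx3cr1 at 10.1 and Irf8 at 55.1. The next TLS libraries had 8.48, 130.4, 2.46 and 17.1. TLS animal 47BE had 8.31 CPM of Sall1 in WAT, against 2.84 for the next.

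Con animal A123 had a liver deviation of 0.88, against 0.10 for the next, with 14.2 CPM of Cd163, 68.4 of Csf1r and 12.6 of Irf8, where the next Con library had 5.71, 30.7 and 7.51. It also had 67.8 CPM of Cx3cr1 in cortex, against 53.3. Con replicate 6 of liver had 1.49 CPM of Cx3cr1, against 0.612, and Con animal 983B had 3.55 in WAT, against 1.73.

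T0 animal T0_3 had a liver deviation of 0.45, against -0.03 for the next, with 8.45 CPM of Aif1 and 41.7 of Mrc1 in liver and 26.4 of Tmem119 in kidney, where the next T0 library had 5.65, 22.7 and 16.99. T0_6 had 1.88 CPM of Cd163 in cortex, 16.9 of Cx3cr1 in WAT and 1.37 of Sall1 in WAT, against 1.13, 1.88 and 0.262. Inpp5d, which was not screened in WAT, was at 368.9 CPM in WAT of T0_6, against 32.6 in the next T0 library. T0_5 had 30.9 CPM of P2ry12 in cortex, against 24.8, and T0_8 had 1.18 of Tmem119 in liver, against 0.565.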

How the results depend on the processing

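In cortex the calls for TLS against Con depended on the libraries kept and on the nuclear RNA covariate more than on the tool. They numbered 20 as reported, 25 with DESeq2, 21 with RLE factors and 18 with no filter, of which 20, 20 and 17 were shared. They numbered 0 in the F libraries alone, 0 with the nuclear RNA share as covariate, 0 without the 4 M Con libraries and 9 without A5DA and E46E, the last 2 added after the data were seen. Leaving out 1 library gave 13 to 25, the lowest without Con replicate 8. For Con against T0 the 7 calls became 11 in F alone, 2 in M alone and 4 with the covariate, and 3 to 8 with 1 library left out (3 without T0 replicate 1 or 2, 4 without Con replicate 3). For TLS against T0 the 34 became 18 in M alone and 9 with the covariate, and 32 to 35 with 1 library left out. The share of all genes called moved with the setting as well, and it is given in this report only for some settings. For the others, here and below, a moved member count cannot be told from a move over all genes.

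Outside cortex DESeq2 called 5 members in kidney, 2 in liver and 2 in WAT for TLS against T0 and 1 in liver for Con against T0, where edgeR called 0. Without T0_6, 1 member was called in WAT for TLS against T0. The liver call of Mrc1 gave a count of 0 with no filter, with at least 1 CPM in 8 libraries, without the sex covariate, with the 2 groups alone, and in F or M alone, and 0 to 1 with 1 library left out. Signs turned for Cd68 in cortex in M alone (-0.003) and for Mrc1 in cortex in F alone (-0.0104), with the covariate (-0.0282), without the 4 M Con libraries (-0.0357) and without A5DA and E46E (-0.0291), all uncalled. With the animal as a replicate block the joint fit called 0 for the tissue difference, and 32 rather than 26 for the level at T0. No cause of these shifts was tested. Clec7a was low in cortex, at 0 to 0.256 CPM in T0 and 0.195 to 0.469 in Con. It did not pass the filter on low counts there, and it was tested in kidney, liver and WAT.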
